A study of Homo sapiens with 10 samples.

Results

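The genes described here are 10 known targets of YAP and its DNA-binding partners, the TEAD factors, that lie outside the CCN family: ANKRD1, CRIM1, DDAH1, NUAK2, DLC1, MYOF, NT5E, ASAP1, GADD45A and RBMS3. They were taken by symbol as known YAP and TEAD targets, without a threshold on their values. Earlier results of these data were known when they were chosen, so the number that rose is a description. All 10 were found among the 60168 genes of the series. MCF10A, a non-tumorigenic human mammary epithelial cell line, was transduced with a YAP5SA vector (MCF10A-YAP5SA, libraries A and B), a TRAM2 vector (MCF10A-TRAM2, libraries A to D) or an empty vector (control, libraries A to D). Cells were selected with antibiotic, harvested before full confluence, and their polyadenylated RNA was sequenced. YAP5SA is a YAP protein whose inhibitory phosphorylation sites are mutated, which keeps it active. TRAM2 is an endoplasmic reticulum membrane protein of the translocon. All groups share the MCF10A background, horse serum, EGF, insulin and hydrocortisone, and each is a transduced population for which the sources used here name no clones. The question was how strongly each target responds to activated YAP, whether TRAM2 alone moves it, and how the response compares with the level that the gene has in control cells.

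YAP and its homolog TAZ are transcriptional co-activators held in check by the Hippo kinases. They do not bind DNA themselves. In the nucleus they join TEAD factors, which recognise the short motif GGAATG, at promoters and, more often, at distal enhancers. In mammary epithelial cells active YAP is known for growth beyond contact inhibition and for a mesenchymal-like shape. The 10 genes are read out together as YAP targets, but their products do very different things: they act at the cell surface (NT5E, CRIM1, MYOF), on kinase and Arf signalling or cell shape (NUAK2, DLC1, ASAP1), in the nucleus and on RNA (ANKRD1, GADD45A, RBMS3) and in arginine metabolism (DDAH1).

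The DNA that carries the TEAD motif is shown first for the members with the steepest responses. RefSeq windows of 300 bases, from 250 before to 50 after a transcription start (build GRCh38.p14), were found for 6 of the 10 members, with 8 starts in all. The motif GGAATG or its reverse complement CATTCC was searched in them on both strands, and 3 of the 6 members (ANKRD1, NUAK2 and DDAH1) held it in at least 1 window. The windows of RBMS3, NT5E and MYOF held none. DDAH1 has several windows and so more room for a match than a single window of the background that follows. Of 35116 such windows over all genes, 14% held the motif at least once and 1.37% at least 2 times. ANKRD1 and NUAK2 each held it 2 times, 220 and 128 bases before the start of ANKRD1 and 197 and 18 bases before that of NUAK2. A match is a description of letters and not a bound site. The 2 windows are printed 5′ to 3′ along the gene, with the motif in capitals, at chr10:90921038-90921337 (minus strand) for ANKRD1 and chr1:205321696-205321995 (minus strand) for NUAK2:
ANKRD1 start: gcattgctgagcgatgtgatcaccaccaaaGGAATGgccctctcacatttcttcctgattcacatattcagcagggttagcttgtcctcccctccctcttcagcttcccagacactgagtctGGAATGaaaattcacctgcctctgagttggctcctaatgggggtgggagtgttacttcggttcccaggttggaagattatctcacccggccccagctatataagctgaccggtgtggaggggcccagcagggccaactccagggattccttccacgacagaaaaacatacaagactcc
NUAK2 start: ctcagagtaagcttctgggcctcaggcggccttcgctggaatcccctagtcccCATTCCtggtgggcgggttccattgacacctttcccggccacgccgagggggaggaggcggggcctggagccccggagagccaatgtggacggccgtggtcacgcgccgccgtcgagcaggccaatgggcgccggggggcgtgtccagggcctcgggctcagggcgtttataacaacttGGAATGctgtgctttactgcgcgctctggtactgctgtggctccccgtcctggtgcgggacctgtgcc

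The study also built a library of CRISPR guides against TEAD4 motifs in YAP-bound regions, and used the ANKRD1 promoter as a positive control region in its ChIP-qPCR. The part of the guide table read here held 1984 such guides, and 19 of them matched the genome within a member or within 10000 bases of it on chromosomes other than 8, each at 1 exact place in GRCh37. There were 9 at DDAH1, 4 at ANKRD1, 4 at MYOF, 1 at CRIM1 and 1 at RBMS3. Since that table was read only in part, the number at a gene and the lack of one carry no meaning. For each of these genes the guide nearest to an annotated protein-coding start upstream or inside the gene is shown with its PAM, the last 3 bases, and with the TEAD motif in capitals, because these are motif copies that the study chose to target at the genes described below:
ANKRD1, chr10:92681047-92681069, plus strand, 212 bases before the start: atgtgagagggcCATTCCtttgg
DDAH1, chr1:86044080-86044102, plus strand, 43 bases before the start of DDAH1-202: ttttaaaggaatctctGGAATGg
CRIM1, chr2:36599372-36599394, minus strand, in an intron 15770 bases after the start: tgccttaaagtgCATTCCtatgg
MYOF, chr10:95226179-95226201, minus strand, in an intron 15760 bases after the start: atctgaaaggtCATTCCcagagg
RBMS3, chr3:29736410-29736432, plus strand, in an intron 413312 bases after the nearest start: agcctaagcagacaCATTCCtgg

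The ANKRD1 guide lies inside the promoter window printed above. The ChIP-qPCR amplicon of the ANKRD1 promoter, chr10:92680994-92681164 in GRCh37, is 171 bases long, ends 150 bases before the start and holds 1 motif. For DDAH1, the start next to the guide is that of DDAH1-202, which received 41 estimated reads in MCF10A-YAP5SA, all in library B, and 0 in MCF10A-TRAM2 and control. The DDAH1 reads described below came mostly from transcripts with other starts.

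Depth and identity of the samples were as follows. Estimated counts ran from 8489854 to 16314438 per library. Gene counts of control libraries A and C agreed within sampling noise, as did those of B and D (chi-square per degree of freedom 1.00 and 0.98 over 1539 genes, p = 0.5 and 0.66), while the other pairs within a group gave 1.14 to 6.22. Over 3704 genes the B and D pair came to 1.05 (chi-square p = 0.021), and over 3646 genes the A and C pair came to 1.01 (chi-square p = 0.36). Each such pair was counted as 1 sample, control 1 and control 2, which left 2 MCF10A-YAP5SA, 4 MCF10A-TRAM2 and 2 control samples. No source used here says that they came from separate cultures beyond the submitters' word for biological replicates, so p-values measure the spread between these samples. MCF10A-YAP5SA libraries carry the first run number only, as do the A and B libraries of the other groups. Both vector genes were high where the labels put them: YAP1 stood at 337 and 342 CPM in MCF10A-YAP5SA against 187 CPM in both control samples, and TRAM2 at 250 to 611 CPM in MCF10A-TRAM2 against 28.4 and 28.9 CPM in control. Reads of a vector and of the cell's own gene cannot be told apart. TRAM2 was also at 242 and 247 CPM in MCF10A-YAP5SA. CPM are estimated counts scaled to library size with TMM factors.

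Of the 10 targets, 9 rose in MCF10A-YAP5SA against control and 1, MYOF, did not pass the test. The responses of these 9 spanned a wide range, a log2 fold change of 0.75 for NT5E and 10.97 for ANKRD1. Calls required an adjusted p under 0.05 (edgeR quasi-likelihood test, Benjamini-Hochberg over 15768 genes) and an absolute log2 fold change over 0.5, and of all genes tested 29.4% met both, 15.3% higher and 14.1% lower. The median log2 fold change was 2.16 over the 10 members and -0.009 over all genes. In none of the 10 did the MCF10A-YAP5SA samples overlap the control samples, with 9 higher and MYOF lower, where 37.3% and 39.4% of all genes did not overlap in these directions. In bulk RNA, a change in the share of cells that express a gene and a change in RNA per cell cannot be told apart. ANKRD1 and NUAK2 passed the filter on low counts only through the MCF10A-YAP5SA samples, so that a call on them was bound to be a difference, and the other 8 passed without them.

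**Figure D1:**
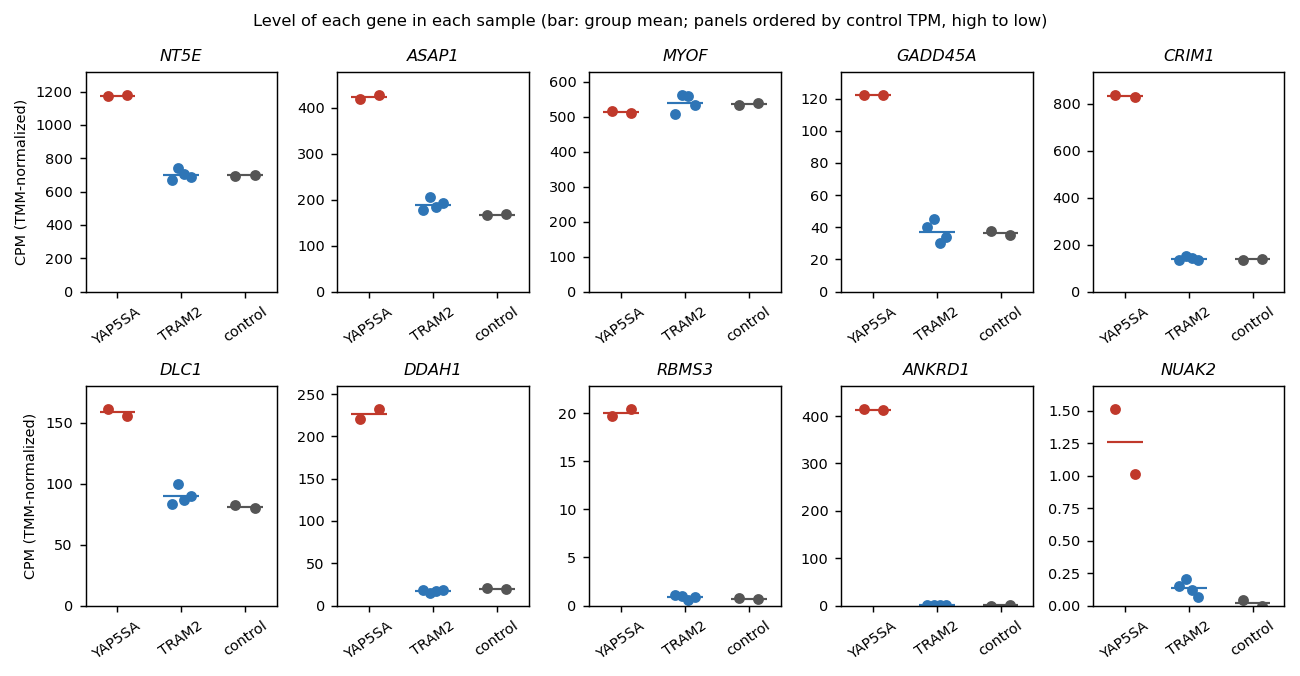
Each panel shows 1 gene, with CPM after TMM scaling on a linear axis from 0 and a point for each sample of MCF10A-YAP5SA (2), MCF10A-TRAM2 (4) and control (2); bars are group means and panels run from the highest to the lowest control TPM. In 9 panels the MCF10A-YAP5SA points stand above all others, and in the MYOF panel they lie at 516 and 512 CPM, among the MCF10A-TRAM2 points and just under control.

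Among the nuclear and RNA-binding members, ANKRD1 was the steepest. ANKRD1 encodes an ankyrin repeat protein of heart and muscle that shuttles between sarcomere and nucleus. It had 414 and 412 CPM in MCF10A-YAP5SA libraries A and B, against 0 and 0.431 CPM in control 1 and 2. Those values rest on 10246 counts in MCF10A-YAP5SA and 8 in control, and those 8 were all in control 2. The count of 0 in control 1 allows up to 0.139 CPM, taking 3 counts over its summed libraries. The gene was therefore close to silent in control cells and, in MCF10A-YAP5SA, among the 4 members with the highest TPM. ANKRD1 passed the count filter only through MCF10A-YAP5SA, so its call was bound to be a difference. It rose by 10.97 ± 0.22 on the log2 scale (SE, adjusted p = 1.4e-10 from edgeR), and the plain ratio of counts per total was 1971 with a 95% counting interval of 1000 to 4565. The fitted size rests on those few counts: it was 15.63 without control 2 and 9.88 without control 1, and ANKRD1 was called in both.

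RBMS3, an RNA-binding protein of the MYC single-strand-binding family, had 19.7 and 20.4 CPM in MCF10A-YAP5SA and 0.778 and 0.646 CPM in control. It rose by a log2 fold change of 4.79 ± 0.24 (SE, adjusted p = 6.3e-10 from edgeR). Even so, at 6.88 ± 1.4 TPM (SD, n = 2) in MCF10A-YAP5SA it stayed among the lowest members. GADD45A, a growth arrest and DNA damage protein that p53 also induces, had 122 CPM in both MCF10A-YAP5SA samples, against 37.8 and 35.5 CPM in control. The gene rose by 1.73 ± 0.16 on the log2 scale (SE, adjusted p = 3.9e-05 from edgeR). GADD45A is a target of more than one pathway, so 10 other p53 target genes were read beside it: 2 of the 10 rose, ZMAT3 (log2 fold change 0.79) and TP53INP1 (1.45), a share near the 15.3% of all genes called higher. The other 8 were not called, although XPC (0.47, adjusted p = 7.2e-05 from edgeR) and BTG2 (0.33, adjusted p = 0.033) missed only the fold threshold. Of the 10, 7 lay wholly higher in MCF10A-YAP5SA than in control and 2 wholly lower, where 37.3% and 39.4% of all genes did.

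DDAH1 degrades asymmetric dimethylarginine, an inhibitor of nitric oxide synthases. It had 221 and 232 CPM in MCF10A-YAP5SA, against 20.3 and 19.3 CPM in control. The rise, 3.51 ± 0.08 on the log2 scale (SE, adjusted p = 1.8e-13 from edgeR) or 11.4-fold, was the steepest among members that control cells expressed at over 1 TPM.

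Of the 3 surface members, CRIM1 and NT5E rose and MYOF did not pass. CRIM1, a transmembrane protein with cysteine-rich repeats that binds BMPs, had 835 and 829 CPM in MCF10A-YAP5SA and 136 and 139 CPM in control, a log2 fold change of 2.59 ± 0.06 (SE, adjusted p = 2.7e-13 from edgeR). NT5E, or CD73, the ectoenzyme that makes adenosine from AMP outside the cell, was the most abundant member in every group. It had 1173 and 1177 CPM in MCF10A-YAP5SA, against 693 and 701 CPM in control. With a log2 fold change of 0.75 ± 0.05 (SE, adjusted p = 3.2e-08 from edgeR), it moved least among the 9 that were called.

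MYOF, a ferlin of membrane repair and vesicle trafficking, had 516 and 512 CPM in MCF10A-YAP5SA and 534 and 540 CPM in control. The difference was small: on the log2 scale it was -0.06, with a 95% interval of -0.18 to 0.05 (adjusted p = 0.37 from edgeR). On counts scaled by transcript length it was 0.03, and on all settings tried MYOF was not called. That interval leaves no room for a change of the size seen in NT5E.

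The signalling members also rose, each to a different degree. NUAK2, an AMPK-related kinase, had 1.51 and 1.01 CPM in MCF10A-YAP5SA, against 0.0458 and 0 CPM in control, from 31 and 1 counts in all. The ratio of counts per total was 47.7, with a 95% counting interval of 7.95 to 1944. NUAK2 too passed the count filter only through MCF10A-YAP5SA, so its call was bound to be a difference. In the fit, NUAK2 passed at an adjusted p of 0.00011 (edgeR), with a log2 fold change of 5.28 ± 0.83 (SE) that rests on a single control count: it was 7.23 without control 1, 4.56 without control 2 and 4.51 within the first run. At 0.226 ± 0.049 TPM (SD, n = 2), it was the lowest member in MCF10A-YAP5SA.

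ASAP1, a GTPase-activating protein for Arf that works at focal adhesions and podosomes, had 419 and 427 CPM in MCF10A-YAP5SA and 166 and 169 CPM in control, a log2 fold change of 1.34 ± 0.06 (SE, adjusted p = 3.5e-10 from edgeR). DLC1, a tumour suppressor first known as a gene deleted in liver cancer, had 161 and 156 CPM in MCF10A-YAP5SA, against 82.3 and 79.9 CPM in control. It rose by 0.96 ± 0.07 on the log2 scale (SE, adjusted p = 5.9e-08 from edgeR). Both genes lie on chromosome 8, at chr8:131064350-131455920 (ASAP1) and chr8:12940870-13462119 (DLC1) in GRCh37.

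**Figure D2:**
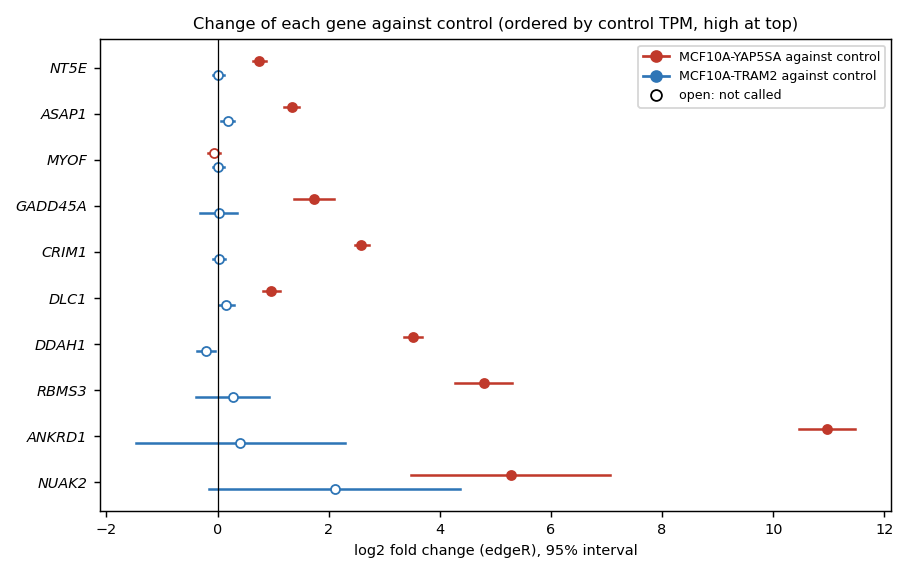
The log2 fold change of each gene (edgeR) is shown with its 95% interval for MCF10A-YAP5SA against control (red) and MCF10A-TRAM2 against control (blue), with genes from the highest control TPM at the top; filled points passed the test and open points did not. The 9 filled red points run from 0.75 (NT5E) to 10.97 (ANKRD1), and no blue point is filled.

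None of these genes passed the test with the TRAM2 vector. In MCF10A-TRAM2 against control, 0 of the 10 were called by edgeR, and likewise 0 by DESeq2, where edgeR called 0.0571% of all genes, 0.0317% higher and 0.0254% lower. At an unadjusted p under 0.05 there were 3 of the 10, ASAP1, DDAH1 and DLC1, beside 1994 of the 15768 genes. The median log2 fold change over the members was 0.09, against -0.001 over all genes. The vector's own gene, TRAM2, had a log2 fold change of 3.90 with an adjusted p of 0.072 (edgeR), so a miss of the threshold in this comparison does not show that a gene kept its level.

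The values of the 3 were close to control. ASAP1 had 177, 205, 184 and 192 CPM in MCF10A-TRAM2 A to D and 166 and 169 CPM in control (log2 fold change 0.18, 95% interval 0.06 to 0.30, adjusted p = 0.19 from edgeR). All 4 MCF10A-TRAM2 samples stood above both control samples. With the 10 libraries as separate samples, ASAP1 had an adjusted p of 0.021 (edgeR) and missed only the fold threshold. That setting counts each control pair as separate samples. DLC1 had 83.4, 100, 86.8 and 90.0 CPM in MCF10A-TRAM2, against 82.3 and 79.9 CPM in control (log2 fold change 0.15, 95% interval 0.02 to 0.29), also without overlap. DDAH1 lay the other way, at 17.8, 15.0, 17.7 and 18.1 CPM in MCF10A-TRAM2 and 20.3 and 19.3 CPM in control (log2 fold change -0.21, 95% interval -0.37 to -0.04). Counting NUAK2, 3 members lay wholly higher in MCF10A-TRAM2 and 1 wholly lower, where 10.4% and 12.3% of all genes did.

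For the others the intervals bound what TRAM2 could have done. NT5E (-0.09 to 0.11), MYOF (-0.09 to 0.11) and CRIM1 (-0.08 to 0.14) were held within narrow 95% intervals of the log2 fold change. RBMS3 (-0.38 to 0.92), ANKRD1 (-1.47 to 2.29) and NUAK2 (-0.15 to 4.37) were not, at 52, 16 and 8 counts over the 4 MCF10A-TRAM2 samples. ANKRD1 had 0.223, 0.483, 0.182 and 0.189 CPM there, against 0 and 0.431 CPM in control. NUAK2 had 0.149, 0.207, 0.121 and 0.0631 CPM in MCF10A-TRAM2, and its ratio of counts per total over control was 5.40 with a counting interval of 0.724 to 240.

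GADD45A split by run within MCF10A-TRAM2. It had 40.3 and 45.1 CPM in libraries A and B and 30.2 and 33.8 CPM in C and D, with 37.8 and 35.5 CPM in control. Within the first run GADD45A differed by 0.25 on the log2 scale (adjusted p = 0.24 from edgeR, 2 libraries a group), and within the second it was -0.23 (adjusted p = 0.16). Over both runs it came to 0.02. The part of the run in this split was not tested.

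Compared directly, MCF10A-YAP5SA exceeded MCF10A-TRAM2 in the same 9 genes, where 29.4% of all genes were called in either direction and 14.9% higher. The log2 fold changes were 10.56 for ANKRD1, 4.52 for RBMS3, 3.72 for DDAH1, 3.16 for NUAK2, 2.56 for CRIM1, 1.71 for GADD45A, 1.16 for ASAP1, 0.81 for DLC1 and 0.74 for NT5E. MYOF was again not called (-0.07, adjusted p = 0.22 from edgeR) and its samples overlapped. This comparison shares its MCF10A-YAP5SA samples with the one against control, so it adds no separate evidence on them.

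To compare levels between genes, TPM, which divides by transcript length, was summed per gene. In control cells the members were spread over a very wide range. NT5E was highest at 149 ± 0.45 TPM (SD, n = 2), followed by ASAP1 (80.8 TPM), MYOF (44.9), GADD45A (28.9), CRIM1 (22.1), DLC1 (12.3) and DDAH1 (4.61). RBMS3 (0.163), ANKRD1 (0.0552) and NUAK2 (0.00415 TPM) were at or near the limit of detection. Among the first 8, no neighbours in this order had overlapping samples. RBMS3 overlapped ANKRD1 and ANKRD1 overlapped NUAK2, so the last 3 cannot be ranked.

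In MCF10A-YAP5SA the order was NT5E (243 ± 12 TPM), ASAP1 (197), CRIM1 (118), ANKRD1 (104), GADD45A (90.7), DDAH1 (49.7), MYOF (44.9), DLC1 (21.0), RBMS3 (6.88) and NUAK2 (0.226), with no overlap between neighbours. ANKRD1 held rank 4 in MCF10A-YAP5SA, and was among the lowest 3 in control, and MYOF held rank 7, against rank 3 in control, at a mean of 44.9 TPM in both groups. The 6 highest members in MCF10A-YAP5SA lay within 4.89-fold of each other, whereas the same 6 genes spanned 2707-fold in control. The summed TPM of the 10 members was 875 for MCF10A-YAP5SA, 365 for MCF10A-TRAM2 and 343 for control.

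**Figure D3:**
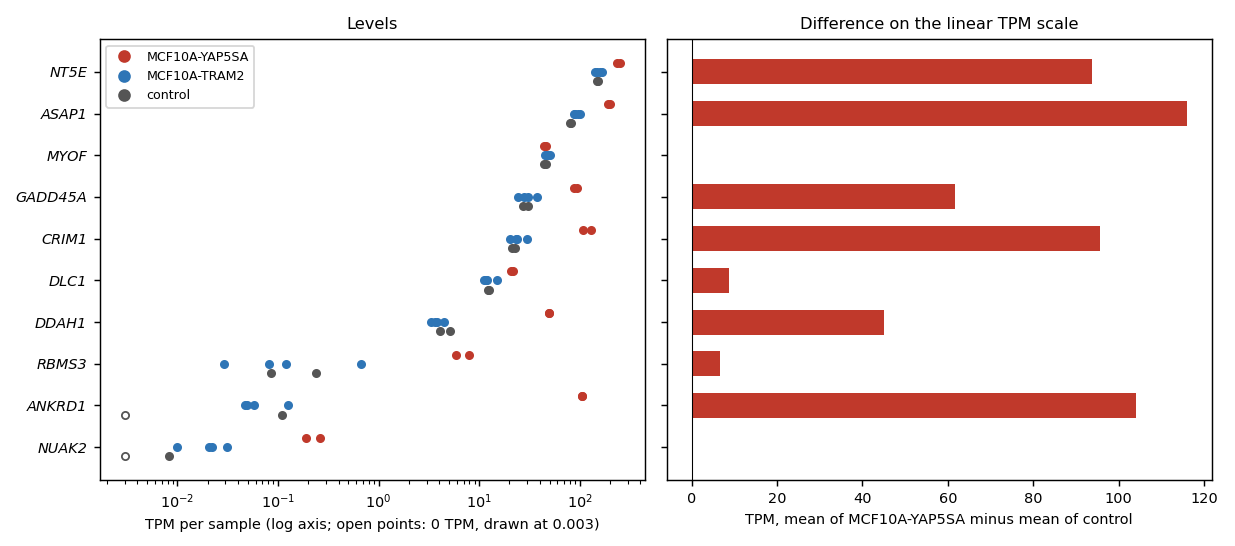
Left, the TPM of each gene in each sample on a log axis, with MCF10A-YAP5SA, MCF10A-TRAM2 and control in separate rows and samples at 0 TPM drawn as open points at the left edge. Right, the mean of MCF10A-YAP5SA minus the mean of control on a linear TPM axis: ASAP1, ANKRD1, CRIM1 and NT5E have similar bars of 116, 104, 95.7 and 93.8 TPM although their control levels differ widely. For ASAP1, CRIM1 and NT5E the bars include short transcript models that take much TPM on few reads, so their likeness holds on the TPM scale only.

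Basal level and fold response were set side by side for each target. Over the 8 members other than ANKRD1 and NUAK2, log2(mean control TPM + 0.1) and the log2 fold change had a Spearman correlation of -0.76 and a Pearson r of -0.86, and over all 10 the values were -0.87 and -0.84. ANKRD1 and NUAK2 passed the filter on low counts only through MCF10A-YAP5SA, so their place at the low end with a large fold was fixed by the filter, and the lowest 3 members cannot be ranked among themselves. These are descriptions: the control samples enter both measures and the genes share all libraries. Over all 15768 genes tested the values were -0.08 and -0.10. Over the 2414 genes called higher in MCF10A-YAP5SA against control they were -0.58 and -0.54. Those 2414 genes were picked by the fold change itself, a choice that can shape such a relation. They therefore cannot show whether the relation is particular to the members, which was not tested.

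Single genes departed from that order. DLC1, at 12.3 TPM in control, had a log2 fold change of 0.96, smaller than the 1.73 of GADD45A (28.9 TPM in control) and the 1.34 of ASAP1 (80.8 TPM in control). MYOF, at 44.9 TPM in control, stood at -0.06, although ASAP1 and NT5E, both above it in control, rose. RBMS3 (0.163 TPM in control) and DDAH1 (4.61 TPM in control) had the steepest changes of these 8, at 4.79 and 3.51.

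**Figure D4:**
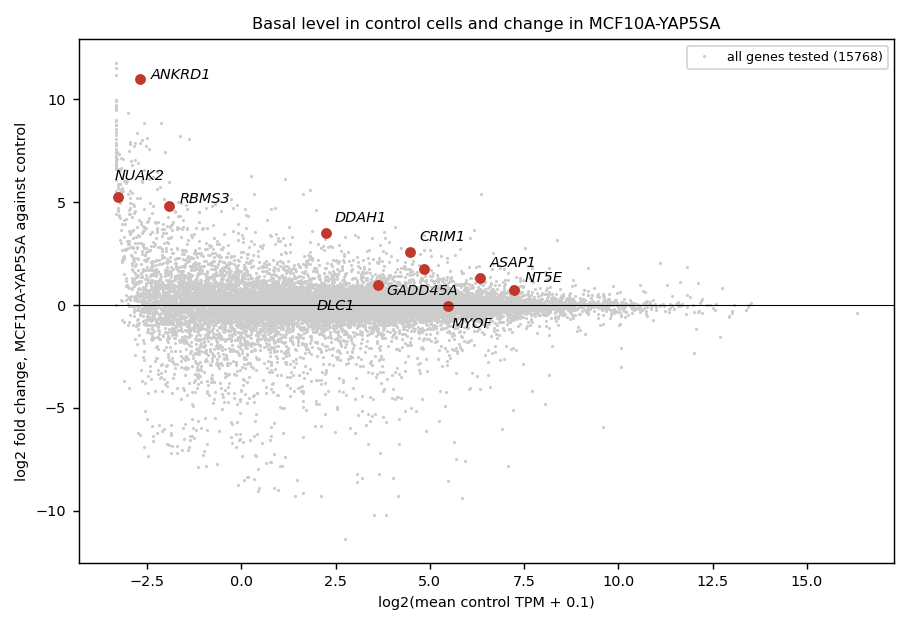
The x axis is log2(mean control TPM + 0.1) and the y axis the log2 fold change of MCF10A-YAP5SA against control; grey points are all 15768 genes tested and red points the 10 members. The members run from ANKRD1 at the upper left (10.97) down to NT5E at the right (0.75), with MYOF on the zero line.

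Measured as added transcript rather than as fold, the order of the members was another. The difference in mean TPM, MCF10A-YAP5SA minus control, was 116 for ASAP1, 104 for ANKRD1, 95.7 for CRIM1, 93.8 for NT5E, 61.8 for GADD45A, 45.1 for DDAH1, 8.72 for DLC1, 6.72 for RBMS3, 0.222 for NUAK2 and -0.0392 for MYOF. Its Spearman correlation with control TPM was 0.30. NT5E and ANKRD1, the ends of the fold scale among called members, gained 93.8 and 104 TPM. NUAK2 and ANKRD1, both near 0 in control, differed in MCF10A-YAP5SA at 0.226 and 104 TPM. A near-silent gene in control thus went with both a large and a very small gain.

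The transcripts that make up these sums matter for the levels. Salmon splits reads among overlapping transcript models, and short models with few reads receive a large TPM. CRIM1-201, the 6060-base protein-coding transcript, took 98.1% of the gene's reads in MCF10A-YAP5SA but 52.0% of its TPM. A retained-intron model of 346 bases (CRIM1-207), with 267 reads, took 40.7% of the TPM. For RBMS3, the 8540-base RBMS3-205 held 58.1% of the reads in MCF10A-YAP5SA and 8.92% of the TPM, while RBMS3-214, a retained-intron model of 413 bases, held 27.6% of the TPM on 18 reads. The TPM of RBMS3 was 42.3-fold higher than in control, and its fitted fold change, which rests on counts, was 27.7. With the TPM of each gene's most-read transcript in place of the sum, the Spearman correlation stayed at -0.87.

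The make-up of transcripts was similar across groups for most well-covered members. NT5E-201 took 53.4% of NT5E TPM for MCF10A-YAP5SA, 53.6% for MCF10A-TRAM2 and 54.2% for control. DDAH1-201 took 86.3% of DDAH1 reads for MCF10A-YAP5SA, 88.5% for MCF10A-TRAM2 and 87.2% for control, and DLC1-201 took 55.2% of DLC1 reads in MCF10A-YAP5SA and 54.4% in each other group. ANKRD1 has 1 transcript in the files. NUAK2-202 had 12 estimated reads in MCF10A-YAP5SA and 0 in the other groups.

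MYOF differed in its make-up although its total did not pass the test. MYOF-201 (6680 bases) was at 4.33 and 4.23 TPM in MCF10A-YAP5SA, at 5.77, 6.82, 7.79 and 7.48 TPM in MCF10A-TRAM2 and at 7.81 and 9.21 TPM in control. MYOF-202 (6860 bases) was at 26.7 and 26.1 TPM in MCF10A-YAP5SA and 25.5 and 23.2 TPM in control. MYOF-201 thus held 9.53% of the gene's TPM in MCF10A-YAP5SA and 18.9% in control, with 9.41% to 9.66% against 14.6% to 22.0% over single libraries. In the GRCh37 annotation the transcripts differ by an exon of 39 bases that only MYOF-202 holds (chr10:95152674-95152712) and in the first exon, of 228 bases in MYOF-202 and 88 in MYOF-201. Antisense or overlapping genes are annotated at RBMS3, CRIM1 and ASAP1. The paper describes its RNA-seq libraries as strand-specific, but the sources used here do not say whether Salmon assigned reads by strand. No test was run on transcripts, since the files used give no measure of how surely reads were assigned to them.

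**Figure D5:**
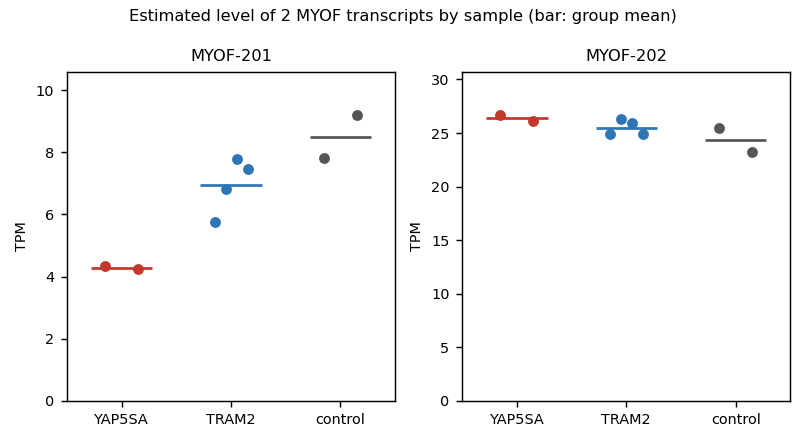
Estimated TPM of MYOF-201 (left) and MYOF-202 (right) by sample in MCF10A-YAP5SA, MCF10A-TRAM2 and control on axes from 0, with bars for group means. MYOF-201 is at 4.33 and 4.23 TPM in MCF10A-YAP5SA, under every other sample, while MYOF-202 is at 26.7 and 26.1 TPM there.

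Close relatives of the members were read beside them. Of 13 paralogs, 12 were tested, and 8 rose in MCF10A-YAP5SA, 0 fell and 4 did not pass. Over all genes tested, 15.3% were called higher and 14.1% lower. NUAK1, the sister kinase of NUAK2, had 23.9 and 21.3 CPM in MCF10A-YAP5SA and 2.43 and 1.56 CPM in control (log2 fold change 3.48, adjusted p = 3.8e-05 from edgeR). GADD45B rose by 1.70 on the log2 scale, close to the 1.73 of GADD45A, and the DLC1 relatives STARD8 and STARD13 rose by 2.49 and 0.86. RBMS2 (1.23), ANKRD2 (0.63), DDAH2 (0.59) and ASAP3 (0.51) rose as well. ASAP2 (0.29) and RBMS1 (0.29) stayed under the fold threshold at adjusted p-values of 0.00081 and 0.00021 (edgeR). ANKRD23, at 1.18 and 1.08 CPM in MCF10A-YAP5SA and 1.01 and 1.45 CPM in control, and the MYOF relative DYSF (0.60, adjusted p = 0.058) did not pass. The median log2 fold change of the tested paralogs was 0.61, and differences between a member and its paralog were not tested.

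Beside the members, 14 other YAP and TAZ target genes were read. Of these, 12 rose, where 15.3% of all genes were called higher, and 2 (F3 and FOXF2) did not pass. The median log2 fold change of the 14 was 1.81. The smallest adjusted p-values were those of IGFBP3 (3.27), TGFB2 (2.03), AMOTL2 (2.56) and PTPN14 (1.31). F3, at 1113 and 1191 CPM in MCF10A-YAP5SA against 1110 and 1131 CPM in control, was, like MYOF, not called, with a 95% interval of -0.11 to 0.19 for its log2 fold change. These lists were drawn up with earlier results of these data known.

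NT5E makes extracellular adenosine, and the other tested genes of that route were not called higher beside it. Of 10 listed, 6 were tested, and in MCF10A-YAP5SA 4 fell and 0 rose, where 14.1% of all genes were called lower and 15.3% higher. Those that fell were ADORA1 (log2 fold change -3.14) and ADORA2B (-0.66), both adenosine receptors, SLC29A1 (-0.73), a nucleoside transporter, and ENTPD2 (-1.29), an ectonucleotidase upstream of NT5E. ADORA2B had 21.1 and 21.9 CPM in MCF10A-YAP5SA, against 34.5 and 33.5 CPM in control. ENTPD1 (0.67, adjusted p = 0.24 from edgeR) and ADA (-0.09) did not pass.

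Markers of the cell type moved as well in MCF10A-YAP5SA, where 15.3% of all genes were called higher and 14.1% lower. Of 6 basal mammary markers, KRT5 and TP63 fell (log2 fold changes -0.94 and -4.45), EGFR rose (0.66) and 3 did not pass, and their summed level was 4321 to 4325 CPM in MCF10A-YAP5SA, 4245 to 5418 CPM in MCF10A-TRAM2 and 4926 to 4930 CPM in control. Markers of other cell types were low. CD14, a monocyte marker, had 0.0841 and 0.232 CPM in MCF10A-YAP5SA and 1.88 and 2.32 CPM in control, and fell by 3.63 on the log2 scale (adjusted p = 3e-05 from edgeR). The 4 fibroblast markers summed to 0.697 to 0.756 CPM in MCF10A-YAP5SA and 0.411 to 0.431 CPM in control. The 4 endothelial markers summed to 2.02 to 2.19 CPM and 9.64 to 10.4 CPM in these groups, with VWF at 0 in every sample. Of these, PECAM1, an endothelial adhesion molecule, had 0.336 and 0.155 CPM in MCF10A-YAP5SA and 7.69 and 7.70 CPM in control, and fell by 4.95 on the log2 scale (adjusted p = 5.9e-08 from edgeR). The 2 luminal markers summed to 2.19 to 3.25 CPM in MCF10A-YAP5SA and 5.49 to 5.55 CPM in control, all of it ESR1, the oestrogen receptor, which fell by 1.01 on the log2 scale, with PGR at 0. The part of these shifts in the members' values was not tested.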

How the data were processed

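Transcript abundance was measured by RNA-seq in 10 libraries, 1 deposited Salmon table each. Per the labels and the study's methods, the authors trimmed reads with cutadapt and ran Salmon, and deposited estimated counts (not whole numbers) and TPM, which is scaled by transcript length and by library total. The sources used here do not give versions, the transcript index, the genome build or the strand setting. The submitters' design text names 3 biological replicates a condition, whereas the labels give 2 MCF10A-YAP5SA, 4 MCF10A-TRAM2 and 4 control libraries.

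Estimated counts were summed per Ensembl gene identifier, to which symbols were then matched, and rounded. Control libraries A and C, and B and D, agreed within sampling noise and were summed. Genes were filtered (filterByExpr), scaled by TMM and tested by quasi-likelihood in edgeR 4.0.16 (R 4.3.3), with all 3 groups in the fit. Genes were called at a Benjamini-Hochberg adjusted p of 0.05 over 15768 genes and an absolute log2 fold change of 0.5. Counting intervals and floors (3 counts per sample, summed controls included) are at 95% where they are intervals and cover counting error only. Control levels enter as log2(TPM + 0.1).

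The members and gene lists were chosen with earlier results of these data known. All 10 members were named, every tested paralog, and of each other list up to 4 called genes with the smallest adjusted p, or the 2 highest where none was called; transcripts were named from 10% of a gene's TPM. Genes named outside that rule (XPC, BTG2, F3, FOXF2, ENTPD1, ADA, PGR, VWF, DDAH1-202) were chosen after their values were seen. Alternatives were DESeq2 1.42.0, RLE scaling, no filter, length-scaled counts, separate control libraries, a replicate block, single runs, only the groups compared, and each sample left out. Gene positions, guides and exons refer to GRCh37 and promoters to RefSeq on GRCh38.p14; the Salmon tables hold no coordinates. The summed level of a further marker list is not reported here.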

Additional observations from a re-analysis of the deposited data

Results flagged for a closer look

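MCF10A-TRAM2 library B stood far from the other 3 MCF10A-TRAM2 libraries for 2 of the 10 genes, by the gap to its nearest neighbour over the group's range, which passed Dixon's 95% limit. ANKRD1 was at 0.483 CPM in library B, from 7 counts, with a ratio of 0.86, and at 0.182 to 0.223 CPM in the others. DDAH1 was at 15.0 CPM in library B, with a ratio of 0.87, and at 17.7 to 18.1 CPM in the others. Chance flags about 1 in 20 groups. This library also had the highest TRAM2 level, 611 CPM against 250 to 460 CPM in the other MCF10A-TRAM2 libraries, and its part in these values was not tested.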

How the results depend on the processing

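Across 16 alternatives to the comparison of MCF10A-YAP5SA with control, the 9 called members were called in each and MYOF in none, with log2 fold changes of 0.71 to 0.77 for NT5E, 0.81 to 0.99 for DLC1, 3.47 to 3.58 for DDAH1 and 9.88 to 15.63 for ANKRD1. MYOF ran from -0.11 to 0.03. ANKRD1 and NUAK2 passed the main filter only through MCF10A-YAP5SA, so the steadiness of their calls is no added evidence. No call on a member changed in any comparison under the alternatives that could test it, but the sign of values that were not called did: MYOF in MCF10A-YAP5SA against control under 1 alternative, and in MCF10A-TRAM2 against control ANKRD1 (lowest -0.68), CRIM1, MYOF, NT5E and GADD45A (lowest -0.23) under 2, 2, 4, 3 and 5. Leaving out each sample in turn gave a Spearman correlation of -0.87 between control TPM and log2 fold change throughout. MCF10A-TRAM2 samples enter neither measure directly, so leaving them out could hardly move it. The value also includes ANKRD1 and NUAK2, whose place was fixed by the filter, so its steadiness is no added evidence. The Spearman correlation was -0.92 with control CPM in place of TPM, -0.76 without ANKRD1 and NUAK2, an alternative chosen after seeing the data, and 0.30 with the difference in TPM in place of the log2 fold change; the last measures another quantity, and the cause of the other shifts was not tested. Library letters did not pair the samples: deviations of same-lettered libraries correlated at -0.03 to 0.04. With the letter as a replicate block over the 10 libraries, 9 members were called in MCF10A-YAP5SA against control, 0 in MCF10A-TRAM2 against control and 9 in MCF10A-YAP5SA against MCF10A-TRAM2, the same counts as without it. Within the second run alone, ANKRD1, NUAK2 and RBMS3 had too few counts to be tested, and MCF10A-YAP5SA has no library there. Counts of 8 or fewer in control limit the size of the ANKRD1 and NUAK2 changes. Every comparison includes a group of only 2 samples, MCF10A-YAP5SA or control, which limits its intervals.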
